A study of Mus musculus with 4 samples.

Results

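Long intergenic noncoding RNAs (lincRNAs) are transcripts that lie between the protein coding genes and carry no long reading frame. Some work at their own locus, some hold together bodies of the nucleus, and others serve mainly as the source of a microRNA or a small nucleolar RNA that is cut out of them. Many are made in few cell types and at low levels, so their exons were followed here through a switch of cell identity. The regions described are all exons in the deposited expression table whose gene has the biotype lincRNA in GENCODE release M21, on autosomes, without H19 and Meg3. They number 2670 exons of 941 genes, out of 234718 listed exons and of 5207 autosomal lincRNA genes in that annotation.

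The study asked whether Mitf, the master regulator of melanocytes, can redirect mouse embryonic fibroblasts (MEFs) to the melanocyte lineage. RNA was sequenced from wild-type MEFs at passage 3, from Mitf knock-in MEFs at passage 5 without doxycycline, called Dox (-), and from Mitf knock-in MEFs at passage 5 that had Dox in the medium for 6 days, called Dox (+). Both knock-in cultures carried Col1a1-TetO-Mitf, which makes the melanocyte isoform of Mitf under Dox, and the M2rtTA transactivator from the ROSA26 locus, and the wild-type culture had neither. They came from 1 correctly targeted clone of KH2 embryonic stem cells by way of chimeric embryos, so host cells could be present, although an mCherry transgene and puromycin resistance allowed selection of the transgenic cells. Primary melanocytes (PMel) were not analysed here.

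Each condition had 1 library, so no difference below has a replicate check and no p-value was computed. RPKM values, which are reads per kb of exon scaled to the aligned reads of the library, came out as whole reads for 95.9 to 96.3% of low values with a depth of 45000000 reads in MEF and Dox (-) and of 44000000 in Dox (+). Intervals given below are exact 95% intervals from those reads and cover counting error only. The column of MEF values was assigned to the wild-type culture by its name alone. The study lists other values for MEF than that column holds, while its knock-in values are those deposited, so the origin of every MEF value below rests on the name. The level of a gene was its highest exon. Listed exons of the same gene can overlap and share reads. Counts of exons past a fold below are therefore counts of annotated entries, not of separate regions. Mitf stood at 1.52, 30.8 and 1544 RPKM in MEF, Dox (-) and Dox (+). The 10 macrophage markers summed to 62.7, 17390 and 627 RPKM in the same order, and each of the 10 exceeded both other libraries by over 4-fold in Dox (-). The 10 fibroblast markers summed to 32020, 67250 and 21290 RPKM, and 5 of them were over 4-fold lower in Dox (+) than in Dox (-). The 10 melanocyte markers summed to 5.21, 13.8 and 278 RPKM. Of these 10, 5 were over 4-fold higher and 1 over 4-fold lower in Dox (+) than in Dox (-), and 4 were above 10 RPKM in Dox (+). In bulk RNA, fewer cells of a type and less RNA per cell cannot be told apart.

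The exons on which the calls below rest were mostly short. Shown first are the exons that gave their gene its level, for lincRNA genes on which the comparisons below turn, read from the GENCODE M21 transcripts (mm10 coordinates). Capitals mark CACGTG and CATGTG on either strand, the E-box letters that Mitf is known to bind. Of the exons printed, that of Gm12688 alone held one.
3300005D01Rik, 143 bp, chr17:5801199-5801341, plus strand: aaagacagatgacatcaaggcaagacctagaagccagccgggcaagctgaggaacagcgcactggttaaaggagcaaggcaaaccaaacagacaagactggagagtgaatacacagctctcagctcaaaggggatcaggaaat
Gm14461, 165 bp, chr2:78300245-78300409, plus strand: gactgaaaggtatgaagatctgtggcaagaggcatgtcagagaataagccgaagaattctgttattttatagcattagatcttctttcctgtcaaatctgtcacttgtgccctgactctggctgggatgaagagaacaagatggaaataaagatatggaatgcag
Wincr1, 120 bp, chr4:89057216-89057335, plus strand: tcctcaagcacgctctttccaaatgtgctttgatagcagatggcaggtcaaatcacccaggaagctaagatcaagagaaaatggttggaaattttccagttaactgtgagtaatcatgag
Lncpint, 44 bp, chr6:31087609-31087652, minus strand: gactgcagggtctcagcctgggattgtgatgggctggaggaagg
Mir142hg, 37 bp, chr11:87755577-87755613, plus strand: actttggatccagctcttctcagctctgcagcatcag
Gm12688, 68 bp, chr4:99654916-99654983, minus strand: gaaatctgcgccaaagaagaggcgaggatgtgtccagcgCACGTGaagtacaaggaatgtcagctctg
Mirg, 55 bp, chr12:109748129-109748183, plus strand: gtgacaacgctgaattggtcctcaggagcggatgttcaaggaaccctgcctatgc
Lockd, 38 bp, chr6:134951306-134951343, plus strand: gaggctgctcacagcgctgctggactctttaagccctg
Malat1, 51 bp, chr19:5801916-5801966, minus strand: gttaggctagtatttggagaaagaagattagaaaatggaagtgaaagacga

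RefSeq promoters, from 250 bases before to 50 after the start site, could be matched by symbol for 391 of the 941 genes. Of those 391 genes, 99 (25.3%) held CACGTG or CATGTG on either strand in at least 1 promoter. Counted by promoter, 20.4% of all 32851 promoters of that length did (7.15% for CACGTG and 14.2% for CATGTG). These shares differ in unit, since a gene can have several promoters, and are not a like comparison. Among the 11 stand-alone genes that passed 4-fold between Dox (-) and Dox (+), described below, 7 had a promoter in the table and 6 of these held a match, 3 of the 4 higher genes and 3 of the 3 lower genes. The RefSeq start used was 5217 bp from the GENCODE start for Mirg and 2014 bp for Lncpint, and at most 1 bp for the others. The match of Mirg thus lay inside its annotated gene. The promoters of 3300005D01Rik and Lncpint, higher in Dox (+), and of Lockd, lower in Dox (+), are printed from GRCm38.p6 as examples, with matches in capitals. That of 3300005D01Rik has CACGTG across the start site, that of Lncpint has CACGTG and CACATG within 50 bases of it, and that of Lockd has CATGTG. Both exons at the annotated start of 3300005D01Rik had at most 2 reads in any library. The Lncpint exon at its promoter had none in Dox (+), as given below. Whether the printed promoters were in use in these cultures was not tested.
3300005D01Rik, chr17:5798407-5798706, plus strand: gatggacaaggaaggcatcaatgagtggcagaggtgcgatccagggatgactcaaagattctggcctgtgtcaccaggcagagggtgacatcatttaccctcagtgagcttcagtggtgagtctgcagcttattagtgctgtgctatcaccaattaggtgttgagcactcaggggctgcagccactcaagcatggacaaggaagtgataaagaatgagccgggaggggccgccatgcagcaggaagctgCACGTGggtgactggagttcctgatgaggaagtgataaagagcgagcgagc
Lncpint, chr6:31218425-31218724, minus strand: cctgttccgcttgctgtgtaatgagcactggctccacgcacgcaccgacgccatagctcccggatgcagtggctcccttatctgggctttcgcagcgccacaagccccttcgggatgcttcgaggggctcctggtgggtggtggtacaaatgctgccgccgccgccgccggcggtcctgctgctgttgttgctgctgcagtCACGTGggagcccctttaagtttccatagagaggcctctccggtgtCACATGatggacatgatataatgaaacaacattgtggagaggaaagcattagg
Lockd, chr6:134928842-134929141, plus strand: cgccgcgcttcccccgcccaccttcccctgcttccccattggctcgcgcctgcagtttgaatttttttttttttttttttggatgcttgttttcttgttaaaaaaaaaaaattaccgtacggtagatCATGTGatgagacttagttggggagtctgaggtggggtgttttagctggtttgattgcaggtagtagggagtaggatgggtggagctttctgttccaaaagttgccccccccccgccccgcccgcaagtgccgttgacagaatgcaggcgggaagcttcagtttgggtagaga

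Most lincRNA genes were silent or nearly so in these cultures. The median level was 0.230 RPKM in MEF, 0.517 in Dox (-) and 0.352 in Dox (+), against 19.4, 26.9 and 24.4 RPKM for protein coding genes. The exons listed at 0 numbered 1033 in MEF, 648 in Dox (-) and 907 in Dox (+), and 237 exons were at 0 in all 3. A total of 282 genes had at most 3 reads on every exon in every library, where 3 reads on an exon of 150 bp correspond to 0.444 RPKM in MEF and 0.455 RPKM in Dox (+). Levels above 10 RPKM were reached by 126 lincRNA genes in MEF, 145 in Dox (-) and 136 in Dox (+). In any library they were 168 of 941, or 17.9%, against 65.1% of protein coding genes. Chromosome 4 held the most of them, 20 of its 110 lincRNA genes, and chromosome 17 held 16 of 49.

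Lists of known lincRNAs, chosen by function, were present at very different levels. The pluripotency list, transcripts such as Lncenc1 and the Platr genes that mark embryonic stem cells, had 14 members in the table and none above 1.11 RPKM in any library. The small nucleolar RNA hosts, whose introns hold the small RNAs that guide modification of ribosomal RNA, were all well above 10 RPKM. Snhg6 stood at 664, 400 and 390 RPKM in MEF, Dox (-) and Dox (+), Snhg12 at 517, 323 and 156, and Epb41l4aos at 163, 96.7 and 77.6. Snhg18 stood at 144, 86.0 and 96.7 RPKM and Snhg20 at 27.3, 47.0 and 21.6. None of these 5 hosts passed 4-fold in either comparison. Of the nuclear architecture list, Neat1, the scaffold of paraspeckles, stood at 918, 1073 and 584 RPKM, and its 7 exons shared that order of the knock-in libraries. Miat, of the same list, was at 0.0222, 5.23 and 0.689 RPKM. Its Dox (-) level came from 4 reads on a 17-bp exon, while its 7008-bp exon had 7, 221 and 35 reads. 1700020I14Rik, which lies 2010 bp from Oip5, was at 58.2, 67.7 and 75.8 RPKM. Of the microRNA hosts that did not reach 10 RPKM, Mir17hg had 513, 238 and 263 reads on its 3457-bp exon, and Mir9-3hg was at 0.0316, 2.22 and 0.0704 RPKM. The Dox (-) level of Mir9-3hg came from 2 reads on a 20-bp exon, under the floor of 3 reads. Of the genes with ties to p53 and growth, Pvt1, which follows Myc on chromosome 15, was at 77.2, 83.6 and 81.1 RPKM with equal reads on exons of unequal length, and Trp53cor1, next to Cdkn1a, was at 4.38, 0.747 and 3.84 RPKM.

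How an exon lies among other genes decided what its value could be read as. The highest exon of 64 of the 160 genes above 10 RPKM in Dox (-) or Dox (+) shared bases with an exon of another gene, on the opposite strand in 62 cases and with a protein coding gene in 49. A further 34 lay inside the body of a protein coding gene. The kit does not mark strand, so reads of such pairs cannot be told apart. Of the 10 highest lincRNA genes in the knock-in libraries, Gm26825, Gm26619, Gm42418, Malat1 and Gm26906 shared an exon and Gm26836 and Gm26551 lay inside Ywhae and Ppp2ca. Gm26825, for example, stood at 2771, 1949 and 4760 RPKM and its overlap partner Gm15459 at 2815, 1986 and 4868. Gm26619 stood at 2253, 879 and 1412 RPKM and Gm10260 at 4291, 1674 and 2690, and Gm42418, which overlaps AY036118, at 356, 1367 and 654 RPKM. Inside Ywhae, which stood at 1900, 1433 and 2226 RPKM, the 29-bp exon of Gm26836 read 2615, 1880 and 2795, and the 32-bp exon of Gm26551 read 990, 862 and 1206 inside Ppp2ca at 741, 618 and 919.

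Another 11 genes carried equal read numbers on exons of unequal length that do not overlap, within 5% or 1 read in both knock-in libraries. Gm10339 had 842 to 844 reads in Dox (-) and 5484 in Dox (+) on each of its 6 exons, from 165 to 1157 bp. Gm13236 had 181, 334 and 54 reads in MEF, Dox (-) and Dox (+) on each of its 3 exons, from 46 to 809 bp. In Gm10339 and Gm13236 the reads did not scale with the exon, and RPKM was set by the shortest one. A gene was placed in this class if at least 1 other exon matched its highest exon, so its remaining exons could differ. The highest level of any lincRNA gene, 2842, 7237 and 5719 RPKM for Gm27174, was in this class, and its 70-bp exon has an exact copy in Gm16677. The same pattern was found in 24 of the 198 lincRNA genes and in 1296 of the 12399 protein coding genes with at least 2 comparable exons. The remaining 51 genes are called stand-alone here. Their highest exon shared no bases with another gene's exon and lay in no coding gene, and no equal reads were found. Equal reads could only be seen in genes with at least 2 comparable exons. Of the 46 stand-alone genes searched, 4 had an exact copy of the highest exon in another gene. By level, Neat1, 1810058I24Rik at 721, 789 and 965 RPKM, and Gm10076 at 638, 496 and 713 led the stand-alone genes. Gm10076 has 1 listed exon, so it could not be checked for equal reads. The plot of reads against exon length sets genes with equal reads beside 3300005D01Rik and Malat1.

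**Figure D1:**
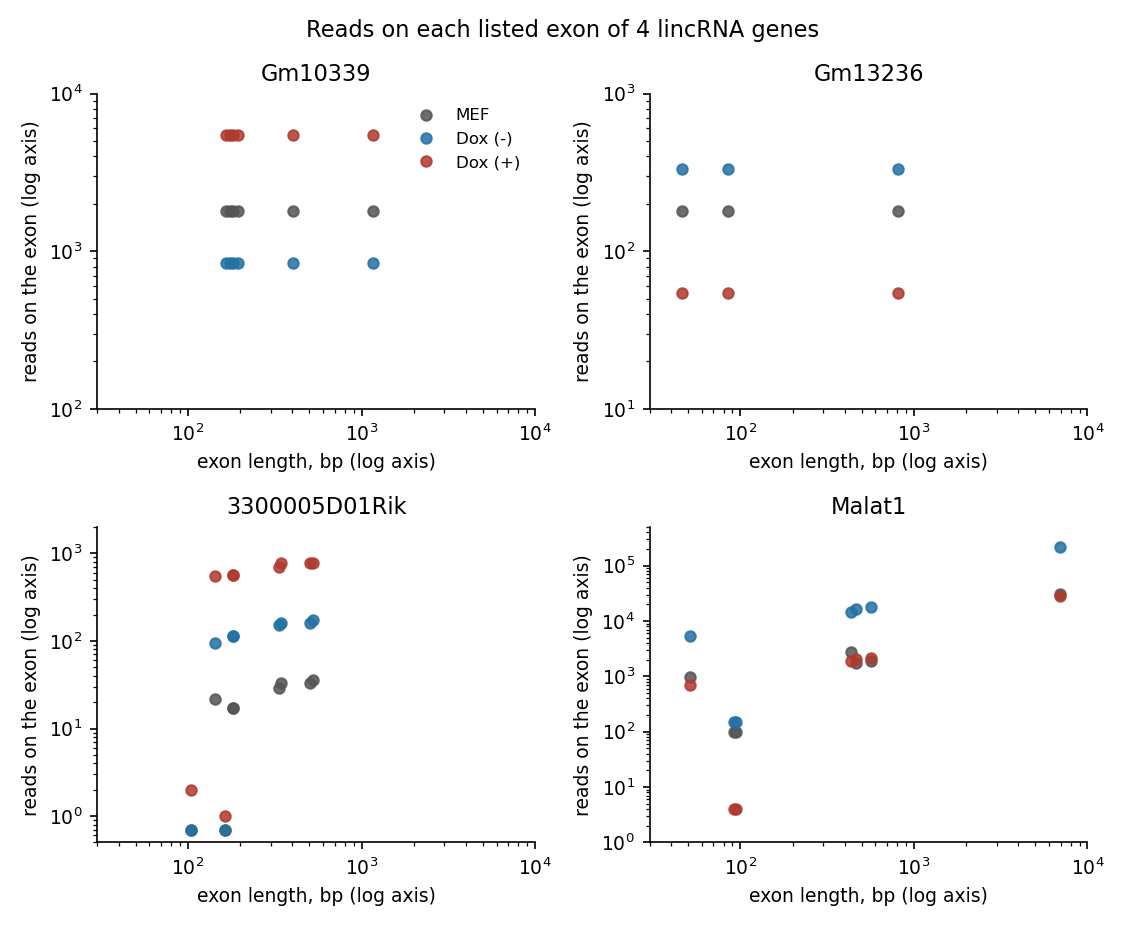
Reads on each listed exon (y axis, log) against exon length in bp (x axis, log) for 4 lincRNA genes, with MEF in grey, Dox (-) in blue and Dox (+) in red, and exons without reads drawn at 0.7. Gm10339 and Gm13236 have the same or nearly the same number of reads on every exon whatever its length, while reads on Malat1 differ between exons. Reads on 3300005D01Rik also differ, but rise less than in proportion to length across its exons with more than 3 reads. The shortest of these, of 143 bp, therefore has the highest RPKM in each library.

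Between the knock-in libraries, 9 of the 160 lincRNA genes above 10 RPKM passed 4-fold upwards in Dox (+) (5.63%, where 1.64% of all 13307 genes tested were) and 16 passed it downwards (10%, where 5.41% of all genes were). The median log2 fold change, computed after adding 1 RPKM to each level, so that changes of weakly expressed genes come out too small, was 0.03 for lincRNA genes and 0.23 for all genes. Genes above 10 RPKM in both libraries were shifted as a whole by 0.26 on the log2 scale towards Dox (+). With the libraries rescaled by that shift, 6 lincRNA genes passed 4-fold upwards and 21 downwards, and the median log2 fold change of lincRNA genes was -0.24. By position, the 9 higher genes were 4 stand-alone genes, 3 that shared an exon, 1 inside a coding gene and 1 with equal reads. The 16 lower genes were 7 stand-alone, 4 that shared an exon, 2 inside a coding gene and 3 with equal reads. The 51 stand-alone genes had a median log2 fold change of -0.36, with 32 below 0 and 19 above, and 31 of the 51 within 1 log2 unit of 0.

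**Figure D2:**
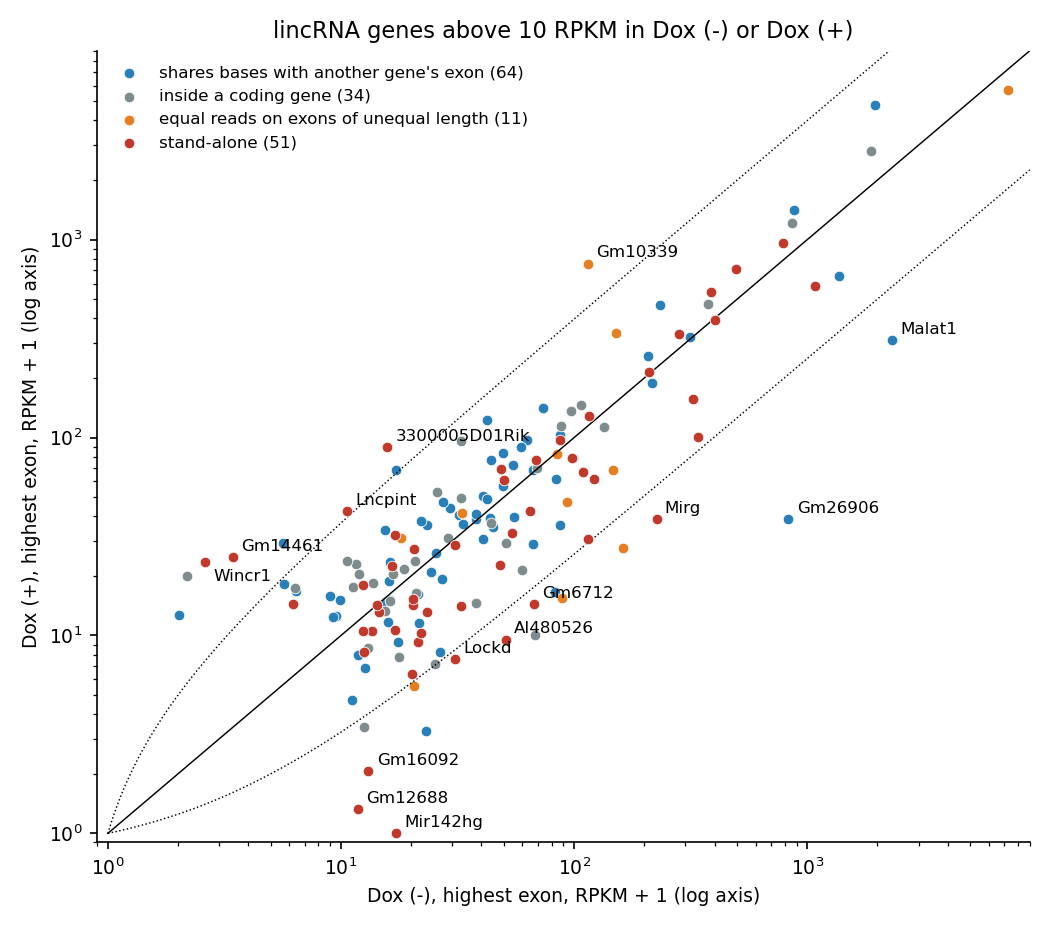
Level of the highest exon, in RPKM plus 1, in Dox (-) (x axis, log) and Dox (+) (y axis, log) for the 160 lincRNA genes above 10 RPKM in either library, coloured by position class. The solid line marks equal levels and the dotted lines a 4-fold difference without the added 1, which 9 genes passed above and 16 below.

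**Figure D3:**
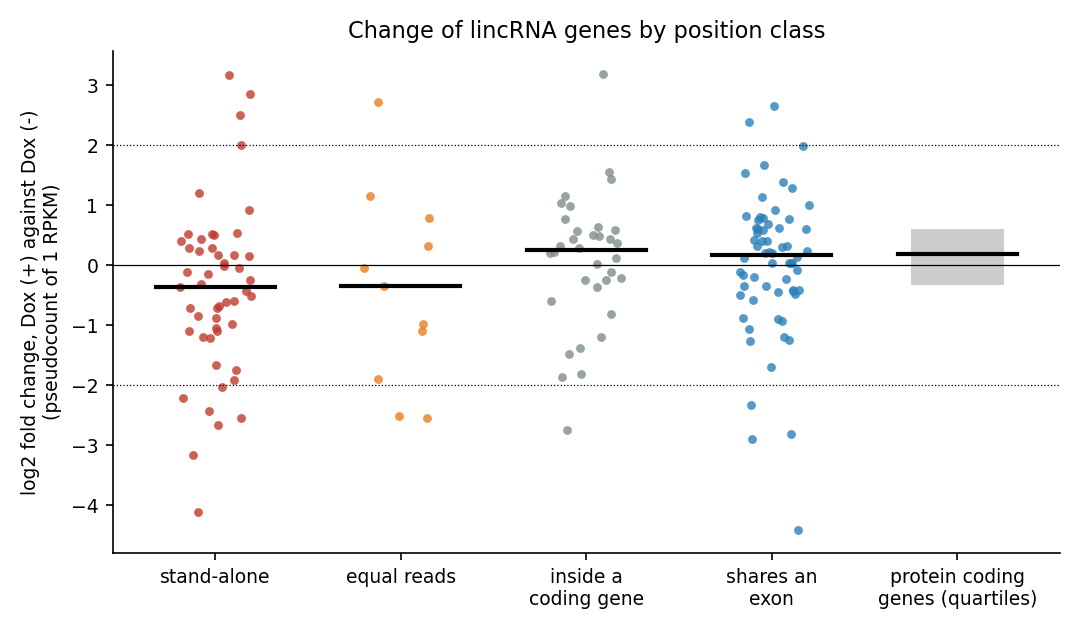
Log2 fold change of Dox (+) against Dox (-), with a pseudocount of 1 RPKM, for each of the 160 lincRNA genes by position class, with the class median as a black bar and protein coding genes as median and quartiles (grey box). Stand-alone genes have a median of -0.36 and those that share an exon a median of 0.16, with dotted lines at 2 and -2.

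The 4 stand-alone genes that were higher in Dox (+) behaved differently in MEF. 3300005D01Rik, a lincRNA gene of chromosome 17 between Zdhhc14 and Snx9, was at 3.42, 14.8 and 88.4 RPKM in MEF, Dox (-) and Dox (+). Its 143-bp exon printed above had 22, 95 and 556 reads, 5.99-fold more in Dox (+) than in Dox (-) (interval 4.81 to 7.52). All 7 of its listed exons with more than 3 reads were past 4-fold, between 4.50-fold and 5.99-fold. Most of these overlap each other and share reads, so they are not separate observations. Both exons at the annotated start had 0 to 2 reads in any library. Its flanking gene Snx9, which acts in endocytosis, stood at 340, 452 and 901 RPKM and Zdhhc14 at 3.03, 25.5 and 6.49.

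Gm14461, on chromosome 2 with no coding gene within 291172 bp, had no reads in MEF on any of its 4 listed exons. It stood at 0, 2.45 and 23.8 RPKM, and its 165-bp exon had 0, 14 and 173 reads, a 12.6-fold difference between the knock-in libraries (7.33 to 23.6). The other exons gave 8.84-fold to 17.7-fold. Wincr1, a transcript named for its induction by Wnt signalling, went the other way between MEF and Dox (-). It was at 70.6 RPKM in MEF, 1.62 in Dox (-) and 22.5 in Dox (+), and the order held on each of its 5 exons. On the 120-bp exon the reads were 295, 7 and 119, which put Dox (+) 17.4-fold above Dox (-) (8.18 to 44.2) and Dox (-) at 0.0237 times MEF (0.00946 to 0.0495). Mtap, 52508 bp from Wincr1, stood at 319, 198 and 507 RPKM.

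Lncpint, a p53-responsive lincRNA, was at 0.505, 9.60 and 41.3 RPKM, a 4.31-fold difference between the knock-in libraries (2.59 to 7.52). With the libraries rescaled by the shift given above, neither Lncpint nor Gm26762, described below, passed 4-fold. Gm26835, also described below, was then no longer above 10 RPKM and so no longer called. The values of Lncpint came from both of its last listed exons only, of 44 bp with 1, 19 and 80 reads and of 93 bp with 0, 7 and 34 reads. The 4 exons nearer to its start had 0 to 5 reads in every library and none in Dox (+), including the 360-bp exon at the promoter printed above. Mkln1, its nearest expressed flanking gene, was at 151, 149 and 210 RPKM.

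Of the other higher genes, 3 shared bases with another gene and 1 lay inside one, so their reads cannot be told apart from those of that gene. Gm26762 was at 28.5, 16.2 and 67.7 RPKM and shares bases with Gpi1, a glycolytic enzyme gene at 1206, 762 and 2388 RPKM. Gm16302 was at 7.597, 4.65 and 28.5 RPKM and overlaps Gm16379 at 24.7, 16.5 and 57.9. 2700012I20Rik lies inside Sin3a, a corepressor gene at 141, 104 and 485 RPKM, and read 6.35, 1.19 and 19.1 RPKM from 16, 3 and 47 reads, a 16.0-fold difference between the knock-in libraries (5.16 to 80.5). Gm26835 overlaps Hivep2 and had 0, 3 and 34 reads on its 66-bp exon, a ratio of 11.6 between the knock-in libraries (3.65 to 59.0). Its 3208-bp exon gave 1.94-fold, and Hivep2 differed by 0.55 on the log2 scale. Gm10339, with equal reads on its exons, was at 244, 113 and 755 RPKM, near Gm3755 at 706, 328 and 2187 RPKM and Gm8374 at 305, 142 and 944. No exact copy of its highest exon was found in another gene.

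Among the 7 lower stand-alone genes, 2 had no reads on their highest exon in Dox (+). The first, Mir142hg, whose microRNA is a mark of haematopoietic cells, had 91 reads on its 2 exons in Dox (-) and none in MEF or Dox (+). Its 37-bp exon read 0, 16.2 and 0 RPKM from 27 reads and its 232-bp exon 0, 6.13 and 0 RPKM from 64 reads. With 3 reads over the gene as the floor, Dox (-) was at least 29.7-fold above Dox (+) and at least 30.3-fold above MEF. The mature products lie between both exons on the plus strand of chromosome 11 and were themselves not measured. They are printed from RefSeq with the seed, bases 2 to 8, in capitals, because the seed sets which messages they bind.
miR-142a-5p: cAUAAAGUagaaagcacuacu
miR-142a-3p: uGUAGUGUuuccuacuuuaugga

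The flanking genes did not share this pattern, with Supt4a at 103, 66.5 and 92.6 RPKM and Tspoap1 at 14.8, 1.53 and 1.58. The summed macrophage markers were also highest in Dox (-), as given above, and their part in the result was not tested. Lncpint, described above and also on the immune list, was at 0.505, 9.60 and 41.3 RPKM, highest in Dox (+). The remaining members of that list stood lower than Mir142hg. Mir155hg had 2, 10 and 0 reads on its 71-bp exon, AW112010 had 0, 16 and 1 reads and Ptgs2os2 stood at 0.166, 2.26 and 1.35 RPKM, so each was highest in Dox (-), and none passed 10 RPKM. Mirt1, of the same list, stood at 1.40, 0.844 and 1.29 RPKM.

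**Figure D4:**
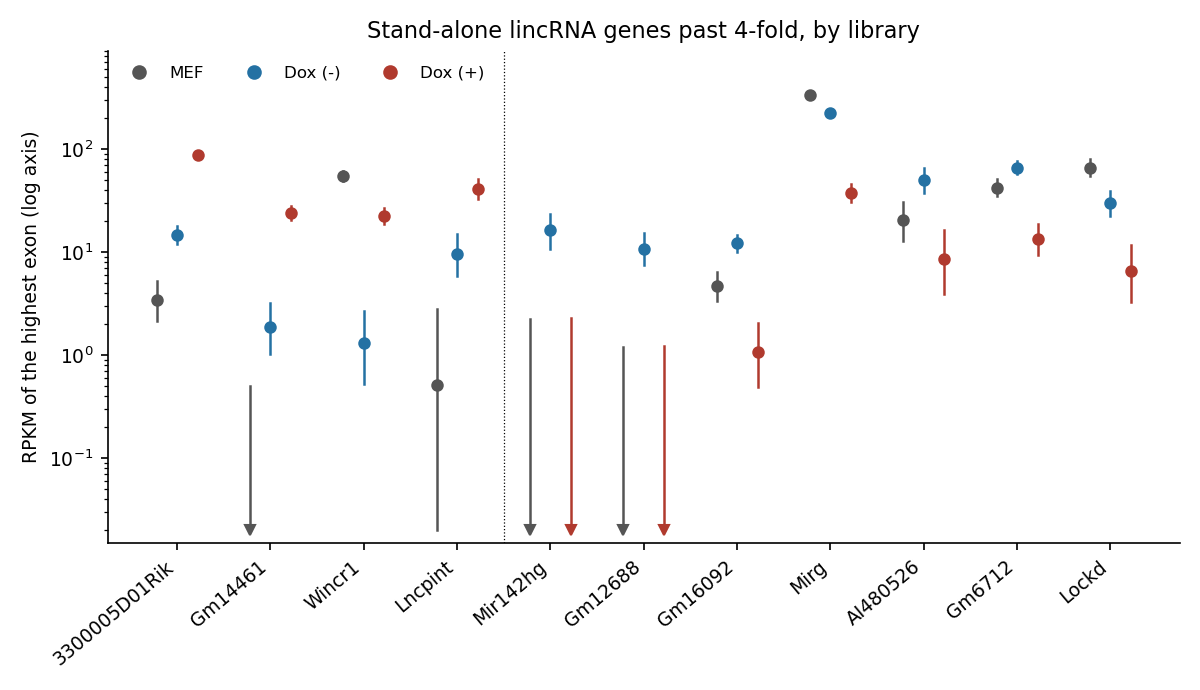
RPKM of the highest exon (y axis, log) in MEF (grey), Dox (-) (blue) and Dox (+) (red) for the 11 stand-alone lincRNA genes past 4-fold between the knock-in libraries, higher in Dox (+) left of the dotted line and lower to its right. Lines are exact 95% counting intervals, and arrowheads mark exons without reads, as in MEF and Dox (+) for Mir142hg and Gm12688.

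The second, Gm12688, starts 1316 bp from Foxd3, a transcription factor gene of the neural crest, on the opposite strand. Its 68-bp exon had 0, 33 and 0 reads in MEF, Dox (-) and Dox (+) and its 633-bp exon had 0, 65 and 9, so on the shorter exon Dox (-) was at least 10.8-fold above Dox (+) and at least 11-fold above MEF. Foxd3 itself was at 0, 0.993 and 0.0192 RPKM. Both were highest in Dox (-). Lockd, which lies downstream of the cell cycle inhibitor gene Cdkn1b, was at 66.1, 29.8 and 6.58 RPKM. Its 38-bp exon printed above had 113, 51 and 11 reads, 4.53-fold fewer in Dox (+) than in Dox (-) (2.33 to 9.65), and 4 of its 10 exons passed 4-fold. Cdkn1b stood at 117, 50.2 and 42.1 RPKM.

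Mirg runs through the microRNA cluster of the imprinted Dlk1-Dio3 domain on chromosome 12 and was read on 42 exons, the most of any lincRNA gene. It was at 332, 225 and 37.6 RPKM, and its 55-bp exon had 821, 556 and 91 reads, 5.97-fold fewer in Dox (+) than in Dox (-) (4.78 to 7.54). The exons did not move together along the gene. On the 12 exons within 3 kb of the annotated start, MEF was the lowest library or tied with Dox (+), at 0 to 1.22 RPKM, and Dox (-) stood at 0.855 to 7.34. Of these 12, the exons of 99 and 100 bp at the start had 8 reads each in Dox (-) and none in Dox (+), so that no fold was computed, and the others differed by 1.17-fold to 3.91-fold. On the 13 exons beyond 13 kb, MEF stood at 28.0 to 332 RPKM, Dox (-) at 25.1 to 225 and Dox (+) at 4.23 to 37.6, and 12 of the 13 passed 4-fold. Some of the exons in both stretches overlap and share reads. RefSeq places 26 mature microRNAs in Mirg, with 25 different seeds, and the only seed held by a pair is that of miR-453 and miR-496a-5p.
miR-453: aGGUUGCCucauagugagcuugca
miR-496a-5p: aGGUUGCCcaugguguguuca

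**Figure D5:**
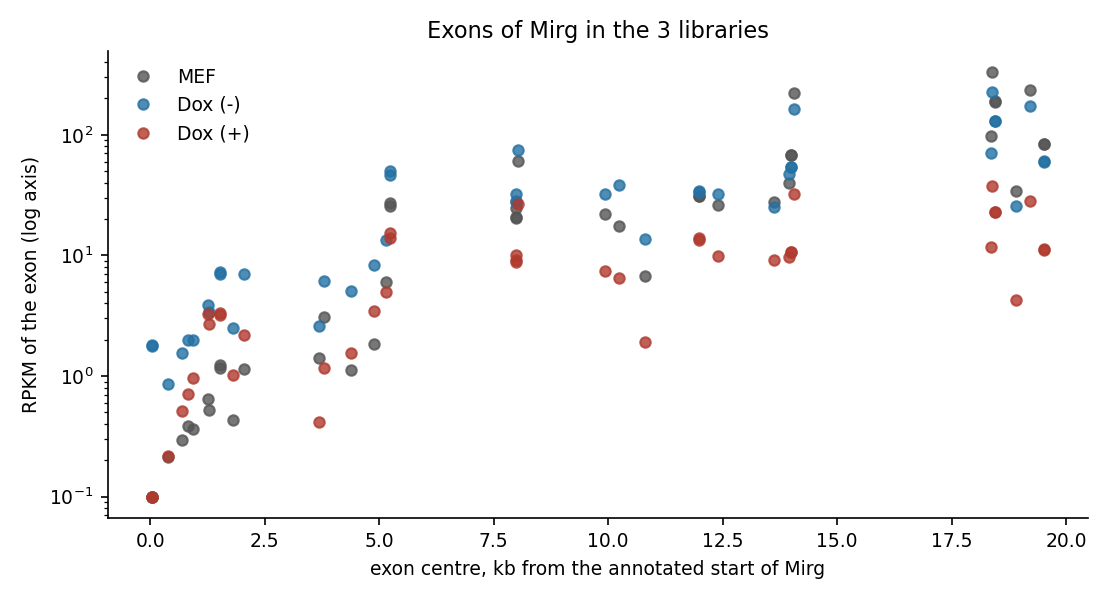
RPKM (y axis, log) of the 42 listed exons of Mirg by the distance of their centre from the annotated start in kb, in MEF (grey), Dox (-) (blue) and Dox (+) (red), with exons at 0 drawn at 0.1. Beyond 13 kb the Dox (+) library lies lowest on all 13 exons, at 4.23 to 37.6 RPKM, while within 3 kb Dox (-) lies highest.

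In the same imprinted domain, Gm26906 was at 577, 828 and 37.8 RPKM in MEF, Dox (-) and Dox (+), with 21.9-fold fewer reads in Dox (+) than in Dox (-) (20.3 to 23.6). Both of its exons lie opposite exons of Meg3, at 1619, 2837 and 209 RPKM, so these reads cannot be given to one strand. Of the coding genes of the domain, Dlk1 was at 734, 453 and 250 RPKM and Rtl1 at 0.522, 3.99 and 0.134.

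Malat1, an abundant RNA of nuclear speckles, was among the lower genes as well. Its level came from a 51-bp exon that overlaps Gm37376, at 427, 2303 and 308 RPKM. The 6983-bp exon that covers nearly all of the gene read 98.8, 686 and 92.2 RPKM from 31043, 215462 and 28320 reads, and the 461-bp exon 83.1, 809 and 102. All 7 exons were lower in Dox (+) than in Dox (-), by 7.44-fold to 37.4-fold. On every exon but a pair of 92 and 95 bp at its 3′ end, MEF and Dox (+) thus lay near each other with Dox (-) apart. Neat1, which lies near Malat1 on chromosome 19, did not follow it, and their neighbour Frmd8 was at 84.0, 125 and 213 RPKM.

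Gm16092, on chromosome 1, was at 4.65, 12.1 and 1.07 RPKM, with 11.3-fold fewer reads in Dox (+) on its 191-bp exon (5.73 to 25.4), which has an exact copy in Gm17017, and 2.84-fold fewer on its 2214-bp exon. AI480526 and Gm6712, named after their values were seen, complete the stand-alone group. AI480526, 527 bp from Setd1b, was at 20.4, 50.0 and 8.52 RPKM, and 16 of its 19 listed exons, some of which overlap, passed 4-fold. Gm6712 was at 42.3, 65.9 and 13.4 RPKM, with 2 of 4 exons past 4-fold. Among lower genes with a partner, Gm26507 at 7.24, 22.2 and 2.29 RPKM lies opposite Fbn2, a microfibril gene at 200, 238 and 21.3 RPKM. Gm26624 lies inside Zfp988, and its exons did not move together, with 90, 30 and 4 reads on the 10-bp exon that gave its level, 104, 26 and 2 on the 1862-bp exon and 51, 29 and 44 on the 1897-bp exon. Gm13236 and Gm26763 carried equal reads, at 87.4, 161 and 26.7 RPKM and at 20.4, 87.3 and 14.4 RPKM.

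Setting the untreated knock-in culture against wild-type MEFs, 22 of 158 lincRNA genes above 10 RPKM passed 4-fold upwards in Dox (-) (13.9%, where 8.26% of all 13234 genes were) and 3 passed it downwards (1.90%, where 1.21% of all genes were). The stand-alone genes made up 10 of the 22 and 2 of the 3. The cultures differed in passage as well as in genotype, which cannot be told apart, and this comparison shares the Dox (-) library with the one above. On the log2 scale with 1 RPKM added, the largest change among the called genes was that of Gm15675, on chromosome 1 near Cd55b, at 2.09 RPKM in MEF, 120 in Dox (-) and 60.4 in Dox (+), from 14, 807 and 396 reads on its 149-bp exon (57.6-fold, 34.2 to 106). Gm53, between the Hoxb genes 20352 bp from Hoxb9, was at 0.429, 21.01 and 9.28 RPKM, with 49.0-fold more reads in Dox (-) than in MEF (22.2 to 135). The 5 called genes without MEF reads on their highest exon have lower bounds only, from 4.33-fold to 11-fold on that exon. Of these, Gm3764 had 0, 21 and 15 reads on a 24-bp exon, at least 7-fold more in Dox (-) than the floor of 3 reads in MEF. Gm26776 was at 0.816, 25.6 and 7.24 RPKM and shares bases with Ccdc3, at 1.14, 44.1 and 18.8.

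The 3 genes lower in Dox (-) than in MEF were Wincr1, Halr1 and Gm5914. Halr1 was at 26.8, 2.61 and 2.01 RPKM, with 41, 4 and 3 reads on its 34-bp exon and 103, 14 and 5 on its 126-bp exon, so it stayed low in both knock-in libraries. Gm5914 was at 24.9, 2.54 and 4.30 RPKM and overlaps Agrp, at 45.0, 2.41 and 3.83, and Ctcf, at 71.5, 64.2 and 69.5. Of the heart-associated transcripts, Bvht was at 62.4, 114 and 29.6 RPKM and Carmn at 4.69, 20.4 and 8.32, and neither level passed 4-fold between the knock-in libraries. Carmn was among the 22 genes higher in Dox (-) than in MEF. Single exons did pass 4-fold downwards in Dox (+), the 269-bp exon of Bvht at 61.4 against 14.8 RPKM and the 526-bp exon of Carmn at 12.97 against 3.15.

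The change of stand-alone genes was also set beside that of the nearest coding gene. Of the 941 lincRNA genes, 227 (24.1%) started within 5 kb of a coding gene start, 107 of them divergent from it within 1 kb, and the median distance was 28330 bp. For 37 of the 51 stand-alone genes the nearest coding gene was above 10 RPKM in a knock-in library. Across these 37 pairs, which come from the same pair of libraries, the log2 fold changes had a Pearson r of 0.37 and a Spearman rho of 0.34, and 21 pairs had the same sign. By distance, Pearson r was -0.06 over the 11 pairs within 5 kb, 0.45 over the 11 pairs at 5 to 50 kb and 0.47 over the 15 pairs beyond 50 kb. Of the 37 neighbours, 4 passed 4-fold, where 1.61% of all protein coding genes tested were higher in Dox (+) and 5.64% lower. Over all 941 lincRNA genes the log2 levels of the libraries had a Pearson r of 0.92 for MEF and Dox (-), 0.94 for Dox (-) and Dox (+) and 0.92 for MEF and Dox (+), where protein coding genes gave 0.93, 0.95 and 0.94. The Spearman rho in the same order was 0.77, 0.80 and 0.77 for lincRNA genes and 0.93, 0.95 and 0.94 for protein coding genes. These values are across genes, which are not independent replicates, and over the 168 genes above 10 RPKM in any library the Pearson r was 0.82, 0.82 and 0.79 and the Spearman rho 0.80, 0.77 and 0.75.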

How the data were processed

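The authors prepared poly(A) RNA libraries with a kit that does not mark strand, demultiplexed reads with bcl2fastq 2.17.1.14, aligned them to mm10 with TopHat2 2.0.10 and used bedtools to count them on annotated exons. The deposited unit is RPKM (per the submitters' notes and the study's methods). bedtools coverage counts any overlap and, unless told otherwise, the introns that an alignment spans. Whether alignments were split, and how reads with several positions were treated, is not given in the sources used here. A value was used only where its column name matched a library, which left 1 column unused and PMel not analysed here, and the MEF column has no support beyond its name.

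Exons were joined to GENCODE M21, and 6586 of 234718 identifiers had no match. Overlaps were found with bedtools 2.31.1. Calls needed more than 10 RPKM in at least 1 of the 2 libraries compared and more than 4-fold without a pseudocount. The floor was 3 reads. Equal reads required at least 20 reads, lengths differing at least 1.5 times and reads within 5% or 1 read. Exact copies were searched in exons of at least 30 bp. Replicates were not available, and the depth of 44000000 to 45000000 reads sets the counting error only.

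The genes named are the 10 highest lincRNA genes of the knock-in libraries, the called genes (at most 10 in each direction, and 5 for the comparison with MEF) and the detected members of the function lists (the pluripotency list by number, and members with at most 4 reads on every exon left out). The members and lists were chosen with earlier results of these data known. Thresholds, fold, choice of exon, overlap, exon length, scaling and pseudocount were varied, and the restriction to stand-alone genes and that to 20 reads were added after seeing the data. The steps were tested on simulated data. Python 3.11.15, pandas 2.3.3, NumPy 2.4.6, SciPy 1.17.1 and matplotlib 3.10.9 were used.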

Additional observations from a re-analysis of the deposited data

How the results depend on the processing

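Of 44 alternatives, 25 stayed within 1.5 times of the value given for a count or near it for a median, and 19 moved. With 1 RPKM as the threshold, 436 lincRNA genes were expressed in place of 168, 28 were higher and 57 lower in Dox (+) than in Dox (-), 82 were higher and 25 lower in Dox (-) than in MEF, and the median log2 fold change of Dox (+) against Dox (-) was -0.16 in place of 0.03. A fold of 2 gave 22 higher and 34 lower in Dox (+), and 43 higher and 15 lower in Dox (-) than in MEF. Exons that overlap no other gene's exon left 111 expressed genes. Exons of at least 200 bp left 8 lower genes in Dox (+) and 12 higher in Dox (-) than in MEF. Rescaling the libraries to equal medians turned the median log2 fold change to -0.24 with 6 higher and 21 lower calls in Dox (+). Stand-alone genes alone, an alternative added after seeing the data, left 55 expressed genes, 4 higher and 7 lower in Dox (+), 10 higher in Dox (-) than in MEF, and a median of -0.36. The cause of these shifts was not tested beyond the smaller number of genes that such filters leave. With 1 library per condition no replicate could be left out. No paired analysis was possible because each condition has 1 library and no test was run.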
